A study of Mus musculus with 58 samples.

Results

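Genomic imprinting marks some genes with DNA methylation on only the maternal or only the paternal allele, and the marked allele is then read differently from the other one. At most imprinted loci the methylation is placed in the oocyte. The loci described here belong to the small class that is methylated in the male germ line instead, so that their control regions are unmethylated in normal oocytes. Acetylation of histone H3 at lysine 27 (H3K27ac) is a chromatin mark of active promoters and enhancers. SETD2 places trimethylation on lysine 36 of histone H3 (H3K36me3), to which the DNA methyltransferase DNMT3A binds when it methylates the oocyte genome.

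The 5 genes are H19, Igf2, Dlk1, Meg3 and Rasgrf1, and they were followed through 3 intervals of the mouse genome (build mm9, as all positions of the tracks here). H19 and Igf2 share an interval of 105 kb on chromosome 7 from 149755001 to 149860000. Dlk1 and Meg3 share an interval of 140 kb on chromosome 12 from 110680001 to 110820000. Rasgrf1, with the control region upstream of it, lies in an interval of 170 kb on chromosome 9 from 89760001 to 89930000. The intervals were fixed by position and not by signal, and they hold 83 windows of 5 kb among the 504528 windows with reads on the autosomes and X. No annotation of mm9 was used here, so values belong to an interval or a window, and none is assigned to a gene body, a promoter or a control region. In the gene order of RefSeq, H19 lies below Igf2 on chromosome 7 and Dlk1 below Meg3 on chromosome 12, where "below" means towards lower coordinates.

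H19 encodes a long noncoding RNA that is read from the maternal allele, and Igf2 encodes a fetal growth factor read from the paternal allele. A single control region between them, bound by CTCF when it is unmethylated, sets which gene is read. Dlk1 encodes a transmembrane protein related to the ligands of Notch and is read from the paternal allele, whereas Meg3 is a maternally read long noncoding RNA. Rasgrf1 encodes a guanine nucleotide exchange factor for Ras, is read from the paternal allele in brain, and has a repeat beside its control region that is needed for its methylation in the male germ line.

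The tracks come from a series of 58 samples in 34 groups on histone marks in mouse oocytes and early embryos, of which 4 samples were used. H3K27ac was profiled in full-grown oocytes by STAR ChIP-seq, a chromatin immunoprecipitation for few cells. Oocytes of genotype Setd2+/- (the control) and of genotype Setd2-/- (the knockout, called a maternal knockout in the series) had 2 replicates each, and the authors deposited 1 track per genotype that pools both. The labels' protocol speaks of females 8 weeks old given PMSG and hCG, but its sentence on oocytes at the germinal vesicle stage cannot be read. The sources used here name no Cre driver, strain or number of animals. The oocyte identity was not checked on marker genes for want of an mm9 annotation.

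With 1 track per genotype there was no spread between replicates to measure, and no test was made. Values are the authors' pooled RPKM, a read density scaled to bin length and library size. Ratios are knockout over control, with exact binomial (Clopper-Pearson) intervals at 95% from recovered reads. These cover counting error only. They are too narrow, since the variance of reads among neighbouring bins of 100 bp was 2.01 to 2.07 times their mean in the control pool and 3.26 to 3.50 times in the knockout pool inside the 3 intervals. The pools held 30694806 control and 29367645 knockout reads. Their means over the autosomes and X were both 0.379 RPKM, and the autosomes alone were 1.04 times higher in knockout because X held fewer reads there.

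The promoters of the genes show what kind of sequence stands at their start sites. RefSeq sequences of build GRCm38 were at hand for 4 of the 5 genes, each covering 250 bases before to 50 bases after the start, and the promoter with the most CpG dinucleotides of each gene is printed 5′ to 3′ with every CpG, the target of DNA methylation, in capitals. Igf2 lies on the minus strand of chromosome 7, Dlk1 and Meg3 on the plus strand of chromosome 12 and Rasgrf1 on the plus strand of chromosome 9.
Igf2: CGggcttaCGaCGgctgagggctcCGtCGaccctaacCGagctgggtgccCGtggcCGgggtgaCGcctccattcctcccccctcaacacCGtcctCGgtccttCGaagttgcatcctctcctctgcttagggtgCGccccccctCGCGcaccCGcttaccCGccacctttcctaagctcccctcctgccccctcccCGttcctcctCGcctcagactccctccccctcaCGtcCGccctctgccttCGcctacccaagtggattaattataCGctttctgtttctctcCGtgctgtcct
Dlk1: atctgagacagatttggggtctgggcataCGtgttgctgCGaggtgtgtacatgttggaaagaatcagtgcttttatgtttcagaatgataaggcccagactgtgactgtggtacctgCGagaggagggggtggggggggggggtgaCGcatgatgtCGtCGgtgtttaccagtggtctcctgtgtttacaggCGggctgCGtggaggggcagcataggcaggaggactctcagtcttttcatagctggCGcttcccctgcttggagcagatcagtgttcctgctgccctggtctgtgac
Meg3: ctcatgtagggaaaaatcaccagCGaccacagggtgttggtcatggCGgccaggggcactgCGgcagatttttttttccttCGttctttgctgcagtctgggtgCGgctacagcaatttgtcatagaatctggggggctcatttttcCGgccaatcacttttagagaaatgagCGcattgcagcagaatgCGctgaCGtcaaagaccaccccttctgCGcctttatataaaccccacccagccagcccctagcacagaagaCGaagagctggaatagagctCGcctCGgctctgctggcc
Rasgrf1: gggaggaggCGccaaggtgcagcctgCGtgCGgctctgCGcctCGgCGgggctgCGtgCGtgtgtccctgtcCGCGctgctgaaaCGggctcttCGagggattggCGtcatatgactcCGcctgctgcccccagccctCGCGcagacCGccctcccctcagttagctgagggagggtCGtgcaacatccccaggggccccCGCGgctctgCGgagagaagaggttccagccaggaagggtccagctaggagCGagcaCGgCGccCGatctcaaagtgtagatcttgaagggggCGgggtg

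The Rasgrf1 promoter held 26 CpG, more than 83.1% of the 32851 promoters of 300 bases in the table, and the printed Igf2 promoter, 1 of 4, held 24. The printed Meg3 promoter, 1 of 2, held 13, and the other Meg3 promoter held 1. The Dlk1 promoter held 9, and the median over all promoters was 7. The GC box GGGCGG, searched on both strands, occurred 2 times in the Rasgrf1 promoter and 1 time in the printed Igf2 promoter, and 35.7% of all promoters had it. The TATA box TATAAA, also on both strands, was found 2 times in the printed Meg3 promoter and in none of the other 3 printed, and 13.6% of all promoters had it. The 2 hits in Meg3 overlap, 1 on each strand, and thus mark 1 site. These letters are a description of the sequence, and the tracks could not be read at them because they follow another build.

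The 3 loci differed in how much H3K27ac they carried in the oocyte. In the control pool the H19-Igf2 interval was poor, at 0.0875 RPKM or 0.231 times the genome-wide mean. The Dlk1-Meg3 interval stood near the mean, at 0.330 RPKM, and the Rasgrf1 interval above it, at 0.496 RPKM. The order was the same in the knockout pool, at 0.183, 0.369 and 0.544 RPKM. Among autosomal stretches of the same length, 11.4% had less control signal than the H19-Igf2 interval, 37.5% less than Dlk1-Meg3 and 67.4% less than Rasgrf1.

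**Figure D1:**
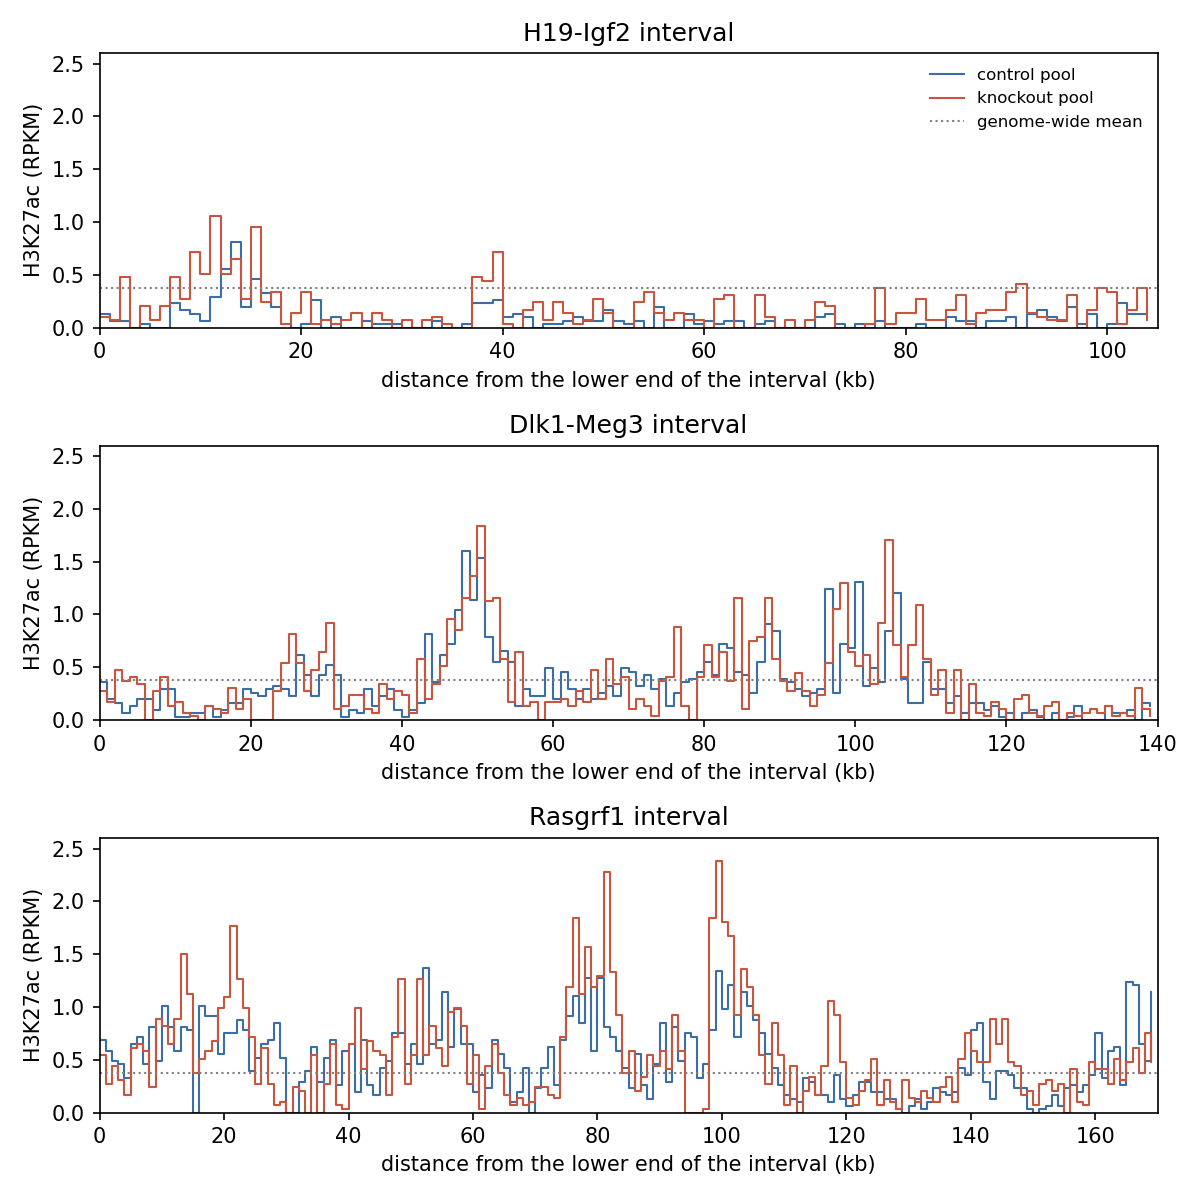
H3K27ac in windows of 1 kb along the 3 intervals, as RPKM against the distance from the lower end of the interval, for the control and the knockout pool (1 track each), with the genome-wide mean of 0.379 RPKM dotted. The H19-Igf2 interval stays mostly below the mean, and the Dlk1-Meg3 and Rasgrf1 intervals have several stretches above it that both pools share.

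Only the H19-Igf2 interval differed by much between the genotypes. Its signal was 2.09 times higher in the knockout pool (1.81 to 2.42), from 282 control and 563 knockout reads. The share of its 100 bp bins with any read was 15.4% in control and 21.5% in knockout. The Dlk1-Meg3 interval had 1416 and 1515 reads and a ratio of 1.12 (1.04 to 1.20). The Rasgrf1 interval had 2588 and 2714 reads and a ratio of 1.10 (1.04 to 1.16). The last ratios lie close to the 1.04 of the autosomes as a whole and inside the uneven counting described above, so neither locus is shown to differ. Both also turned below 1 when the median of 1 kb windows was used in place of the mean, at 0.980 for Dlk1-Meg3 and 0.971 for Rasgrf1.

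Ratios as high as that of H19 and Igf2 were not rare in these pools. Over 22701 autosomal stretches of 105 kb the median ratio was 1.06, and the 10th and 90th percentiles were 0.467 and 2.22. The H19-Igf2 interval exceeded 88.1% of them, and 80.9% of the 1307 stretches on chromosome 7, where the median was 1.21. Poor regions leaned towards higher values in the knockout pool: of 1728 stretches whose mean over both pools lay within 20% of that of H19-Igf2, the median ratio was 1.27 and 74.0% were lower than the interval. The Dlk1-Meg3 ratio exceeded 54.1% of 17062 autosomal stretches of 140 kb, and the Rasgrf1 ratio 52.6% of 14059 stretches of 170 kb. Against stretches of like level the order was another. The 3983 stretches within 20% of the level of Dlk1-Meg3 had a median ratio of 0.764, and 75.2% of them were lower than that interval, a share near that of H19-Igf2. The 4280 stretches of like level for Rasgrf1 had a median of 1.00, and 57.8% were lower.

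The regions beside the loci were compared over the same lengths. On chromosome 7 the 105 kb below the interval had a ratio of 1.61 (1.46 to 1.77) and the 105 kb above it one of 0.790 (0.732 to 0.852). The flank below H19-Igf2 was thus also higher in the knockout pool as a whole, at a smaller ratio, and the flank above was lower. On chromosome 12 the flank below Dlk1-Meg3 had a ratio of 1.03 (0.956 to 1.12). The flank above, as poor as H19-Igf2 with 0.0829 RPKM in control, had a ratio of 1.87 (1.64 to 2.14), and 57 of its 637 knockout reads lay in 1 bin. On chromosome 9 the ratios were 0.889 (0.844 to 0.937) below Rasgrf1 and 1.69 (1.59 to 1.80) above it, so that the interval lay between a lower and a higher neighbour.

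**Figure D2:**
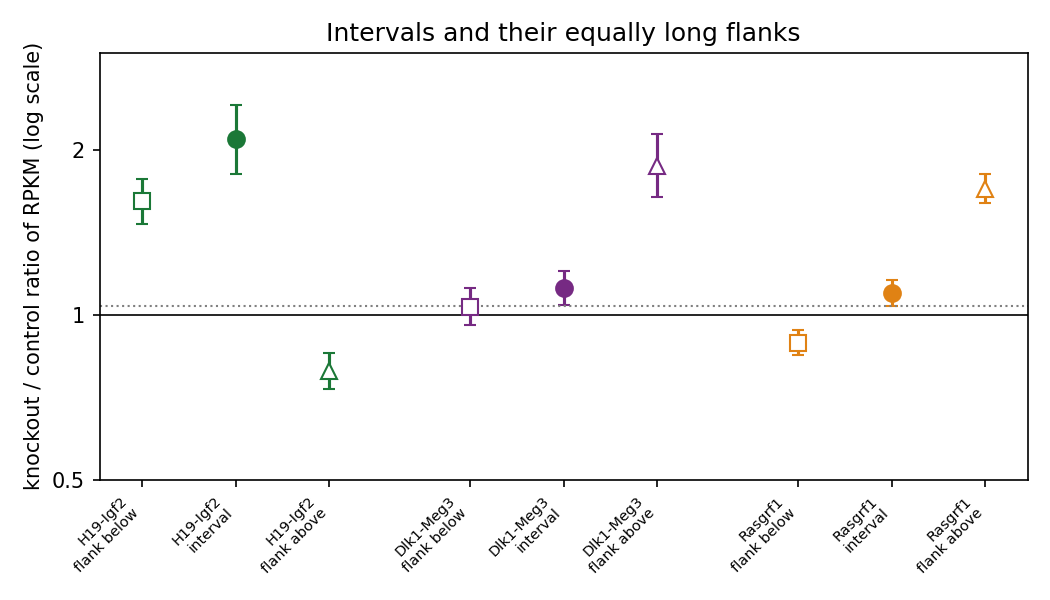
Ratio of knockout over control RPKM (log scale) in each interval (filled circles) and in the flanks of equal length below (squares) and above it (triangles), with 95% intervals from counting error, a line at 1 and a dotted line at the 1.04 of the autosomes. The H19-Igf2 interval has the highest of the 9 ratios at 2.09, and the Dlk1-Meg3 and Rasgrf1 intervals lie at 1.12 and 1.10.

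Few windows of 5 kb were called at 2-fold at these loci, by a rule that leaves out nearly all of H19-Igf2. Windows were compared as the log2 ratio of RPKM + 0.1, a scale that shrinks differences at low levels. A window counted as higher or lower from 2-fold on, provided that the mean of both pools reached the genome-wide mean. Of the 83 windows 30 passed this filter, 1 in H19-Igf2, 8 in Dlk1-Meg3 and 21 in Rasgrf1. Of the 30, 1 was at least 2-fold higher in knockout and 1 at least 2-fold lower, both in Rasgrf1, where over the genome 11.6% of windows past the filter were higher and 15.2% lower. The filter removes windows low in both pools, and thus 20 of the 21 windows of H19-Igf2. Without the pseudocount the ratios of these 20 ran from 1.33 to 5.92, on few reads.

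All 21 windows of the H19-Igf2 interval had more signal in the knockout pool, with log2 ratios from 0.19 to 1.13 and a median of 0.57, against a median of 0.01 over the genome. Control values ran from 0.0130 to 0.384 RPKM and knockout values from 0.0545 to 0.599 RPKM, and 1 read is worth 0.00652 and 0.00681 RPKM in such a window. The 21 windows belonged to a run of 23 neighbouring windows with more knockout signal, 115 kb long, from 149745001 to 149860000. The autosomes held 61850 such runs with a median of 2 windows, of which 1546 were at least as long, up to 146 windows. Long runs hold more windows each, so a fixed position falls into one more often than their share among runs.

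Poor windows of the other loci leaned the same way. Where the mean of both pools lay below 0.190 RPKM, which is the genome-wide mean divided by 2, knockout exceeded control in 17 of 17 windows of H19-Igf2, in 7 of 7 of Dlk1-Meg3 and in 3 of 4 of Rasgrf1, and in 60.4% of such windows over the genome. Between this level and the mean it did so in 3 of 3, 6 of 13 and 5 of 9 windows, against 35.6% over the genome. At or above the mean it did so in 1 of 1, 7 of 8 and 12 of 21 windows, against 51.2%. The median log2 ratio of the poorest class was 0.57 in H19-Igf2, 0.16 in Dlk1-Meg3 and 0.29 in Rasgrf1, and 0.15 over the genome. At this level Dlk1-Meg3 thus lay near the genome's median and H19-Igf2 above it. Windows of a locus share their libraries and are not replicates.

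**Figure D3:**
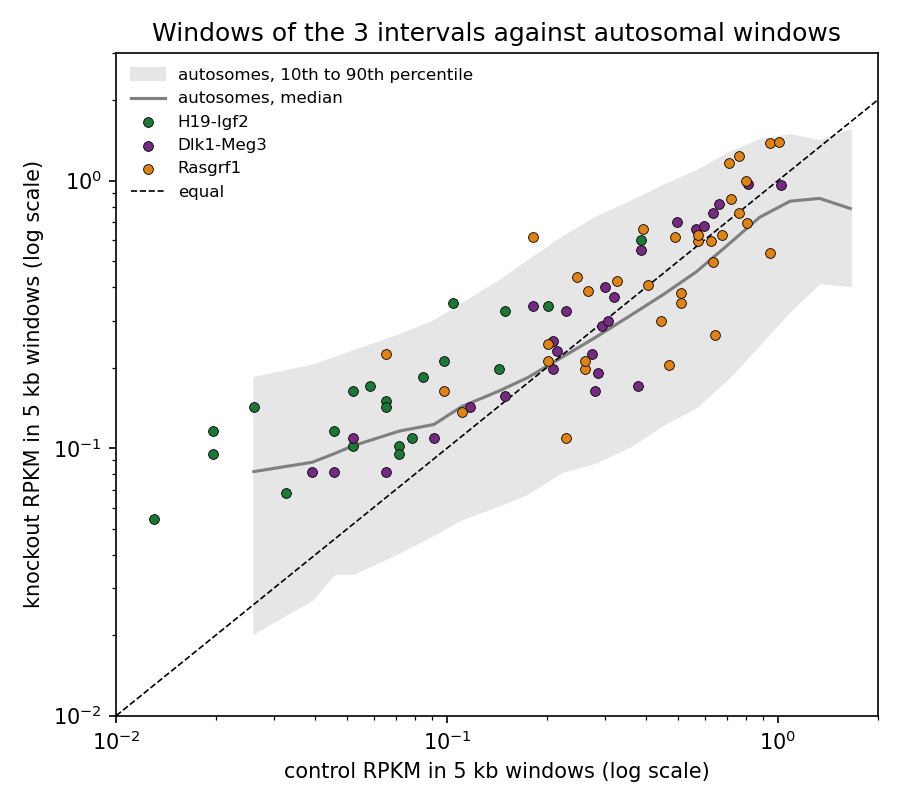
Knockout against control RPKM of the 83 windows of 5 kb (log axes), with the median and the 10th to 90th percentile of autosomal windows binned by control signal in grey and equality dashed. The H19-Igf2 windows lie in the lower left, all above the dashed line, and 1 Rasgrf1 window lies highest above the grey median among windows with over 0.1 RPKM in control.

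Signal in the H19-Igf2 interval was concentrated near its lower end, the side of H19. The 15 kb from 149760001 to 149775000 took 37.6% of the interval's reads in control (32.1 to 43.4, Wilson, 95%). In knockout its share was 33.6% (29.8 to 37.6). Here the control level of 0.230 RPKM stood against 0.429 RPKM in knockout, a ratio of 1.86 (1.46 to 2.39). The remaining 90 kb, which reach up to the side of Igf2, had 0.0637 and 0.142 RPKM, a ratio of 2.22 (1.85 to 2.67). Both parts were higher in the knockout pool, and their ratios overlapped in the counting intervals, so that no difference between the parts was detectable at this depth.

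The only window of this locus past the filter, from 149765001 to 149770000, was the richest in both pools. It had 59 control and 88 knockout reads, 0.384 and 0.599 RPKM, a ratio of 1.56 (1.11 to 2.21) and a log2 ratio of 0.53. Its summit differed between the pools in windows of 1 kb. Control was highest from 149768001 to 149769000, with 25 control and 19 knockout reads. Knockout was highest from 149766001 to 149767000, with 9 and 31 reads, a ratio of 3.60 (1.67 to 8.60). The window with the largest log2 ratio of the interval, 1.13, lay just below it from 149760001 to 149765000, with 16 and 51 reads, and did not pass the filter. These positions rest on few reads. The summits were picked by the reads of 1 pool, which by itself draws ratios away from 1.

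In the Dlk1-Meg3 interval the windows of 5 kb with the most control and the most knockout signal were neighbours. The richest 15 kb of the interval, from 110720001 to 110735000, had 327 reads in each pool. These are 0.710 RPKM of control and 0.743 RPKM of knockout signal, a ratio of 1.05 (0.894 to 1.22). Both of the richest windows of 5 kb lay there. That from 110725001 to 110730000 led in control, with 1.02 and 0.967 RPKM and a log2 ratio of -0.07, the lowest among the 8 windows past the filter. Its neighbour from 110730001 to 110735000 led in knockout, with 0.815 and 0.974 RPKM.

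A broader rich part lay towards Meg3. From 110760001 to 110770000 the pools had 0.583 and 0.668 RPKM, a ratio of 1.14 (0.930 to 1.41). From 110775001 to 110790000 it was 0.600 and 0.758 RPKM, a ratio of 1.26 (1.08 to 1.49). This stretch held the highest log2 ratio past the filter, 0.43 from 110785001 to 110790000, where 76 control and 103 knockout reads were counted. The end of the interval, from 110790001 to 110820000, was poor in both pools, at 0.0923 and 0.129 RPKM. In windows of 1 kb the summits of this part differed between the pools. The window from 110780001 to 110781000 ranked 3rd of the interval in control and 36th in knockout, with 40 and 15 reads, a ratio of 0.392 (0.201 to 0.725). That from 110784001 to 110785000 ranked 9th in control and 2nd in knockout, with 26 and 50 reads, a ratio of 2.01 (1.23 to 3.36). Both were picked among 140 windows for a high rank in 1 pool, which by itself draws ratios away from 1. The counting intervals make no allowance for that choice, so a shift of summits is not shown. The lowest log2 ratio of the whole interval in windows of 5 kb, -0.82, was that of a window below the filter from 110750001 to 110755000, with 58 and 25 reads.

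Rasgrf1 was the richest of these loci and the one whose parts differed most from each other. The SD of its log2 ratios over windows, 0.52, was still below the median of 0.59 over stretches of like level. The window from 89860001 to 89865000 led in both pools, with 155 control and 204 knockout reads, 1.01 and 1.39 RPKM, and a ratio of 1.38 (1.11 to 1.71). The 10 kb from 89835001 to 89845000 had 0.854 and 1.31 RPKM in the control and knockout pools, a ratio of 1.54 (1.31 to 1.80). Rich windows, here those reaching 3-fold of their pool's average, numbered 0 in control and 4 in knockout among the 83, and all 4 were in Rasgrf1. Over the genome 1.93% of windows were that rich in control and 6.25% in knockout.

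Both windows of Rasgrf1 that passed the 2-fold limit lay above the genome-wide mean in 1 pool and below it in the other, so each passed the filter through the pool where it was high. The window from 89875001 to 89880000 had 28 control and 90 knockout reads, 0.182 and 0.613 RPKM, a ratio of 3.36 (2.18 to 5.33) and a log2 ratio of 1.34. The window from 89785001 to 89790000 had 99 and 39 reads, 0.645 and 0.266 RPKM, a ratio of 0.412 (0.277 to 0.602) and a log2 ratio of -1.03. The latter just reached the limit and missed it, at -0.99, with at most 10 reads counted per bin. None of its bins held more than 7 control or 5 knockout reads, so this shift did not come from capped bins of the window itself. It adjoined 10 kb below the mean from 89790001 to 89800000, where the ratio was 0.551 (0.395 to 0.761). At the upper end, from 89920001 to 89930000, the ratio was 0.633 (0.507 to 0.787). The ratio of 1.10 of the whole interval was therefore a mean over parts that were higher and parts that were lower.

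**Figure D4:**
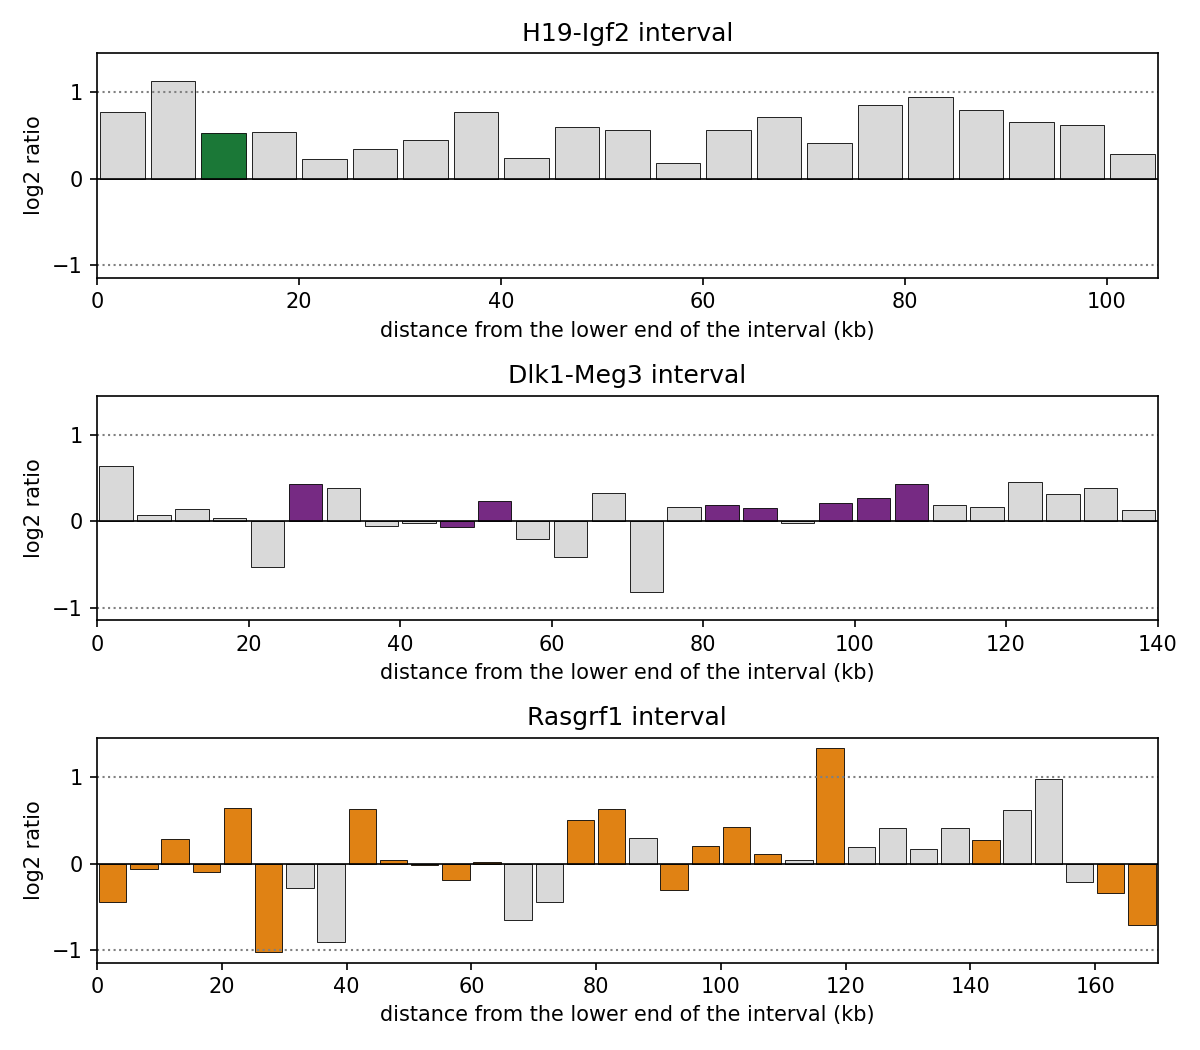
Log2 ratio of knockout over control (RPKM + 0.1) of each 5 kb window along the 3 intervals, with windows past the filter coloured, the others grey, and the 2-fold limits dotted. All H19-Igf2 bars point up, the Dlk1-Meg3 bars stay within the limits, and the Rasgrf1 bars point both ways and pass the limits in 1 coloured window each.

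The likeness of the profiles was then set beside that of other autosomal stretches, a comparison chosen after the values were seen. Across the 28 windows of Dlk1-Meg3, Pearson's r of reads between the pools was 0.945 and Spearman's rho 0.900. The medians over stretches of 140 kb were 0.691 and 0.642, and 99.3% and 98.8% of stretches were lower. Across the 21 windows of H19-Igf2, r was 0.926 and rho 0.771, above 97.6% and 78.6% of stretches of 105 kb. Across the 34 windows of Rasgrf1, r was 0.780 and rho 0.774, above 73.5% and 80.2% of stretches of 170 kb. In windows of 1 kb the likeness was lower at every locus, with r of 0.569 over 105 windows of H19-Igf2, 0.655 over 140 of Dlk1-Meg3 and 0.591 over 170 of Rasgrf1, and rho of 0.397, 0.591 and 0.575. Windows share libraries and mappability, so these values describe the loci and carry no p-value.

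The log2 ratio varied less along the loci on chromosomes 7 and 12 than along most autosomal stretches of like level. This comparison, too, was made with earlier results known. The SD of the log2 ratios over windows was 0.25 in H19-Igf2, and 1 of 1728 stretches of like level had a smaller one, with a median of 0.50. It was 0.31 in Dlk1-Meg3, where 5 of 3983 stretches of like level were smaller and the median was 0.58. It was 0.52 in Rasgrf1, where 25.1% of 4280 stretches were smaller and the median was 0.59. With a pseudocount of 0.01 the SD was 0.52, 0.46 and 0.67, and 0.579%, 0.201% and 23.7% of stretches of like level were smaller. With either pseudocount the log2 ratios of both loci were thus less spread than those of most stretches of like level. Without a pseudocount the window ratios ran from 1.33 to 5.92 in H19-Igf2, where a control window held as few as 2 reads. In Dlk1-Meg3 they ran from 0.451 to 2.09. The ratios of the whole intervals, 2.09 and 1.12, exceeded about the same share of stretches of like level, 74.0% and 75.2%.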

How the data were processed

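H3K27ac STAR ChIP-seq of full-grown oocytes was analysed from 1 deposited track per genotype, in which the authors pooled 2 replicates, per the labels. The deposited values are RPKM in bins of 100 bp with empty bins left out, a unit read from the values themselves. Build mm9 and Bowtie2 2.2.2 are named in the submitters' processing notes. Whether reads were extended, de-duplicated or corrected with an input is not stated there, and any of these could change values at repeats.

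Every value was a whole multiple of 1 read within 0.005 RPKM (100% of bins), which gave 30694806 control and 29367645 knockout reads. Empty bins counted as 0. Windows of 5 kb and 1 kb were averaged with Python 3.11.15, NumPy 2.4.6, pandas 2.3.3 and SciPy 1.17.1, and drawn with matplotlib 3.10.9. Stretches are adjoining autosomal tiles with at least 50 reads over both pools. The code was tested on simulated data. By rule, the text names for each interval the windows with the top and bottom log2 ratio past the filter and the richest of each pool. Further windows, stretches and summits were named after their values were seen. The members, lists and comparisons were chosen with earlier results of these data known. Gene bodies, promoters and the 54 other samples were not analysed here.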

Additional observations from a re-analysis of the deposited data

How the results depend on the processing

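No paired analysis was possible because the replicates of each genotype were merged into 1 track, from which single replicates could not be omitted. Gene bodies and promoters were not run, as no mm9 annotation was used here. The H19-Igf2 ratio of 2.09 ran from 1.99 with the median of autosomal windows set to 0 to 2.15 with at most 10 reads per bin. The cap also moved the window from 89785001 to 89790000, where no bin held more than 10 reads. Changes under the cap are thus not those of capped bins alone. The Dlk1-Meg3 and Rasgrf1 ratios of 1.12 and 1.10 stayed above 1 when scaled to the autosomal mean and with the window median set to 0. They also did so with at most 10 reads per bin and without the richest 1% of bins. With the median of 1 kb windows they were 0.980 and 0.971, and the cause was not tested. The median of autosomal windows of 5 kb was also lower in knockout, at 0.259 against 0.326 RPKM. Windows higher and lower at 2-fold, 1 and 1 in the main setting, were 0 and 0 with a pseudocount of 0.5, 2 and 1 with no filter, 0 and 0 with a filter at 2 times the mean, 5 and 1 in windows of 2 kb, 0 and 0 in windows of 10 kb, 4 and 2 at 1.5-fold, and 1 and 0 with at most 10 reads per bin. Fewer or more windows enter by construction under other filters and sizes. Of 80 windows tested at 2 kb, 5 were higher and 1 lower, against 15% and 18% over the genome. The 5 at 2 kb were thus no excess. The 1.5-fold rule had 30 windows and genome-wide shares of 25.4% and 26.5%. Without a filter there were 83, with shares of 8.98% and 13.7%. At 10 kb there were 16 (9.81% and 13.2%), and capped at 10 reads per bin 32 (10.9% and 14.4%). The stricter filter kept 9 (14.9% and 3.59%), and the pseudocount of 0.5 had 30 (2.58% and 3.17%). Rich windows among the 83 were 0 in control and 4 in knockout at 3 times the mean, against 1.93% and 6.25% over the genome. They were 9 and 9 at 2 times (14.7% and 16.2%) and 0 and 0 at 5 times (0.00971% and 0.292%). Of 28 values of the 7 named windows under alternatives, 26 stayed inside the counting interval of the window, 2 left it and none turned direction beyond it. With 282 control reads over 105 kb, depth limits the H19-Igf2 interval most.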
